A study of Mus musculus with 15 samples.

Results

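The 10 genes Dicer1, Ago1, Ago2, Ddx4, Mael, Piwil2, Mov10l1, Gtsf1, Pld6 and Tdrkh belong to the small RNA machinery of germ cells. They were taken by symbol from 55401 gene identifiers, of which 36497 had a count in the oocyte libraries. All 10 were found and passed the filter on low counts. Dicer1, Ago1 and Ago2 act in the siRNA and miRNA pathways, and the other 7 in the piRNA pathway.

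Small interfering RNAs (siRNAs) arise when Dicer cuts double-stranded RNA, and Argonaute proteins carry them to transcripts that match. In mouse oocytes this pathway restrains retrotransposons and many gene transcripts, and it depends on a shorter Dicer form that starts inside the Dicer1 gene, while miRNAs have little activity there. Piwi-interacting RNAs (piRNAs) are longer, are made without Dicer from single-stranded precursors, and guide PIWI proteins against transposons. Loss of many piRNA genes stops sperm formation in male mice but leaves females fertile.

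Oocytes at the germinal vesicle stage came from Kunming mice, an outbred strain, and the series gives an age of 12 to 14 days. The methods give that age for the mice whose follicles were cultured, and in vivo oocytes were taken from antral follicles without a separate statement of age, so an age difference from IVV cannot be told apart from growth in vitro. Each library held 6 oocytes amplified by SMART-Seq2, a poly(A)-primed PCR method without molecular identifiers, so counting intervals would cover counting error only and the error given is the spread between libraries. The 15 libraries fell into 5 groups of 3. In IVV the oocytes came from follicles grown in vivo and numbered by the labels as replicates 2, 3 and 4. Preantral follicles were grown in vitro for 10 days without (IVG) or with (IVG-NT) neurotrophin-4 (NT-4), or for 6 days without (IVG day 6) or with it (IVG-NT day 6). The methods give 3 replicated experiments per group without tying libraries to animals, so the P values measure the spread between these pools, which may be partly technical.

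Total counts per library ran from 5954262 to 55593251. The shallowest were IVG-NT day 6 replicates 1 (5954262) and 2 (7125348), against 50336973 in replicate 3, and these 2 had 13338 and 10991 genes with a count against 15483 to 22966 in the other 13. Spearman correlations across genes were 0.51 to 0.54 between the 3 IVG-NT day 6 libraries and 0.77 to 0.96 within the other groups. The rRNA gene CT010467.1 held 12.5% to 37.9% of counts in 9 libraries, called rRNA-rich here (IVV replicate 3 and replicates 1 and 2 of each cultured group), and under 1% in the other 6, called rRNA-poor. All 12 oocyte markers (Zp3, Gdf9 and others) had counts in every library, with a summed level of 13652 to 23714 CPM. The 13 granulosa cell markers summed to 253 to 1425 CPM, the 9 theca and stroma markers to at most 38.9 and the 7 macrophage markers to at most 65.4, and their part in the values below was not tested. Of the granulosa cell markers, 4 to 13 had a count in a library, and 5 in the library with the highest sum. Serpine2 reached 45781 counts and the other granulosa cell markers at most 5873. In pooled material fewer cells of a type and less RNA per cell cannot be told apart.

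Per exon length, Gtsf1 had the highest mean of the 10 genes. Its mean over the 15 libraries was 419 FPKM, more than that of 99.6% of genes tested, with single libraries from 12.7 to 1367 FPKM. It led in all 6 rRNA-poor but in 5 of 9 rRNA-rich libraries, where Dicer1 led in 3 and Ddx4 in 1. Dicer1 (37.7 FPKM), Ddx4 (35.2), Mael (21.3) and Pld6 (13.3) followed, then Tdrkh (7.29) and Ago2 (3.95). The place of Pld6 rested on few libraries, since it exceeded Tdrkh in 4 of 15. Mov10l1 (1.13), Piwil2 (0.788) and Ago1 (0.495) were the lowest, all below the level of most genes tested. In mean FPKM Dicer1 exceeded both Argonaute genes, and the PIWI gene Piwil2 lay far under Gtsf1. Of 33 other small RNA genes, the highest in mean FPKM were Tex19.1 (54.2), a repressor of transposons, and the Tudor-domain genes Tdrd1 (40.2) and Tdrd12 (31.7). Tdrd1 was above Tex19.1 in IVV (46.2 against 33.5) and IVG (43.4 against 42.4), but not in IVG-NT or at day 6. The lowest were Piwil4 (0.386), Ago4 (0.302) and Btbd18 (0.0876). FPKM were computed from the counts and the union of each gene's exons, with the normalized library totals.

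**Figure D1:**
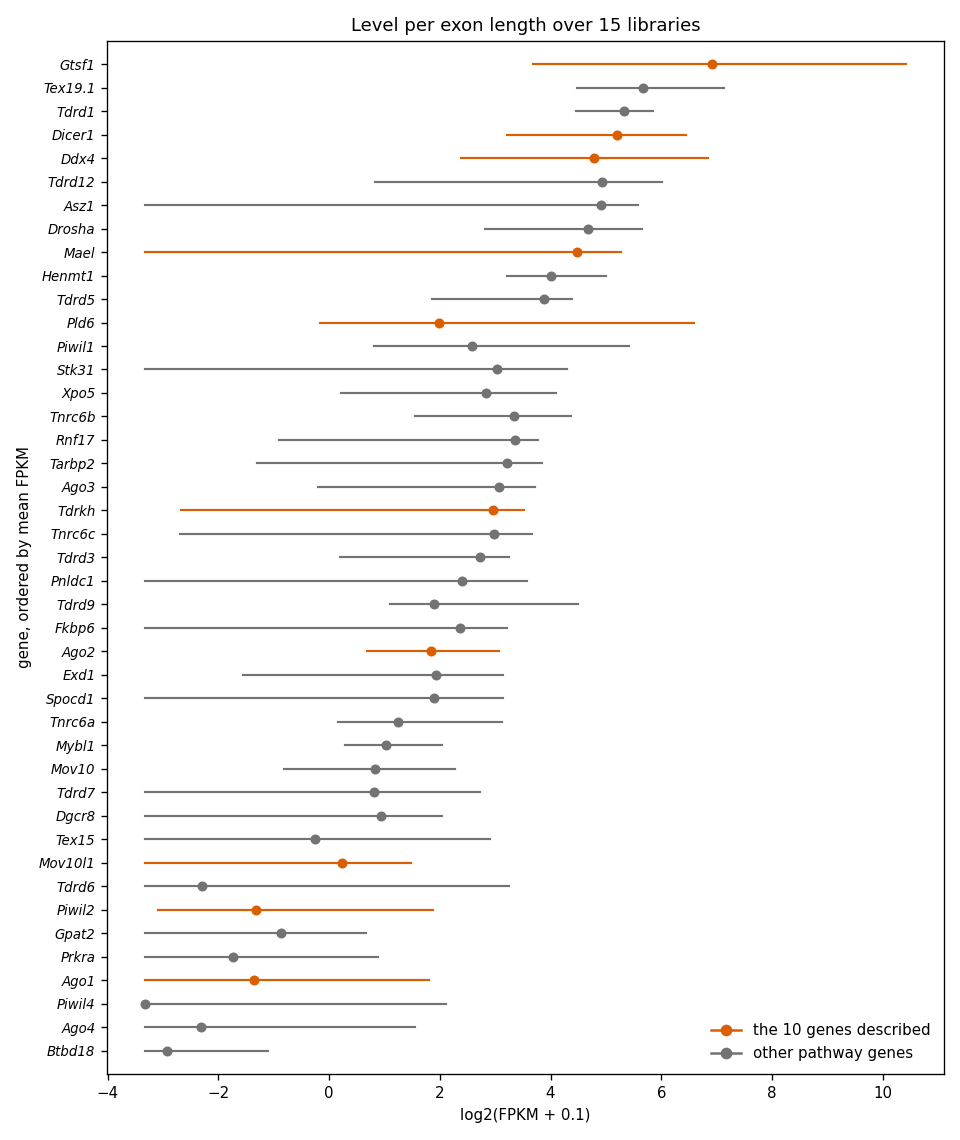
Level per exon length, log2(FPKM + 0.1), of the 10 genes (orange) and 33 other small RNA genes (grey), ordered by mean FPKM; dots are medians and lines run from the lowest to the highest of the 15 libraries. Gtsf1 leads with a mean of 419 FPKM, and Ago1, at 0.495, is the lowest of the 10.

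Promoters were read from RefSeq (GRCm38.p6; 250 bases before to 50 bases after each start) to see what the genes share beyond function. Of the 10 genes, 8 had an entry, and Ago2 and Piwil2 had none. The letters CACGTG, the E-box bound by basic helix-loop-helix factors, which read the same on both strands, stood in 4 of 6 piRNA genes with an entry and in neither of Dicer1 and Ago1, against 8.09% of 27025 genes. The motif was chosen after the sequences had been seen. It holds a CG pair, and the promoters of the 10 genes hold more such pairs (median 25 per promoter against 8 over all genes). The 8.09% is therefore not a like background, and promoters of like CG content were not compared. Among the 33 other genes 27 had an entry and 6 held it. The distances to the start are those to RefSeq starts. By the GENCODE coordinates given below, the Ddx4 stretch lies inside the gene and the start of Mov10l1 is nearer to its motif. The stretches around it are shown 5′ to 3′ on the strand of the gene with the motif in capitals, so that the distance to the RefSeq start, 223 bases in Mael and 246 in Mov10l1 but 29 in Ddx4 and 33 in 1 of 2 starts of Pld6, can be set against the flanks.
Mael, chr1:166238935-166238994, minus strand: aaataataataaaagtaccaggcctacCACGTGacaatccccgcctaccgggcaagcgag
Mov10l1, chr15:88982744-88982780, plus strand: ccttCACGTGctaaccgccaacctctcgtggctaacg
Ddx4, chr13:112652311-112652366, minus strand: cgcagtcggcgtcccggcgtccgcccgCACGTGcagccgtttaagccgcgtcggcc
Pld6, chr11:59787658-59787717, minus strand: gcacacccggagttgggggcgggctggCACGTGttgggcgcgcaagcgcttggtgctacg
These 4 genes did not share a pattern over the libraries: log2 CPM of Mael and Mov10l1 correlated with r = 0.85, while Mael and Pld6 gave r = -0.77 (15 libraries that also share depth and kind, so no p is given).

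Dicer1 (ENSMUSG00000041415, GRCm38 chromosome 12, 104687742 to 104751952, minus strand) encodes the RNase III enzyme that makes siRNAs and miRNAs, and the counts do not separate its long and oocyte forms. In CPM (counts scaled to a common normalized library total), the IVV libraries had 232, 611 and 154 and the IVG libraries 1352, 1211 and 279. The IVG-NT libraries had 1085, 1461 and 236 CPM, those of IVG day 6 had 797, 677 and 294, and those of IVG-NT day 6 had 251, 628 and 216. In every group the rRNA-rich libraries lay above the rRNA-poor ones, and all groups overlapped. The median was 797 CPM in the 9 rRNA-rich and 234 in the 6 rRNA-poor libraries.

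Gtsf1 (ENSMUSG00000022487, chromosome 15, 103402405 to 103430470, minus strand), whose zinc-finger protein assists RNA cleavage by PIWI proteins, showed the opposite arrangement. Its levels were 1581, 139.7 and 1899.7 CPM in IVV, 107, 91.9 and 907 in IVG, and 115, 103 and 1256 in IVG-NT. At day 6 they were 139, 168 and 697 CPM without and 17.7, 481 and 1036 with NT-4. The rRNA-poor libraries of each group were above the rRNA-rich ones, and across all groups the 2 kinds did not overlap (697 to 1899.7 against 17.7 to 481 CPM), a 9.93-fold ratio of medians. Mael (ENSMUSG00000040629, chromosome 1, 166201201 to 166238747, minus strand), the Maelstrom gene of piRNA production, had 45.7, 13.1 and 53.9 CPM in IVV, 38.6, 48.3 and 52.3 in IVG and 31.3, 36.6 and 58.7 in IVG-NT. IVG day 6 had 33.1, 16.1 and 66.5 CPM of Mael and IVG-NT day 6 had 2.17, 0 and 56.6, where 0 counts allow up to 0.499 CPM. Mael too was lower in the rRNA-rich libraries of all 5 groups.

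Over all genes tested, 4.96% lay above in the rRNA-rich libraries of each group, as Dicer1 did, and 15.9% lay below in each, as Mael and Gtsf1 did. The other 7 genes did not keep 1 side in all groups. Of the 33 other small RNA genes, 5 lay above in all 5 groups (Drosha, Piwil1, Tnrc6a, Tnrc6b and Mybl1) and 4 below (Tdrd12, Fkbp6, Stk31 and Tex15), and these names were chosen after their values were seen. The exon length was 16.8 kb for Dicer1, 1.73 kb for Mael and 1.39 kb for Gtsf1, while Pld6, at 1.76 kb, had its higher values in rRNA-rich libraries. The part of length in this pattern was not tested.

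**Figure D2:**
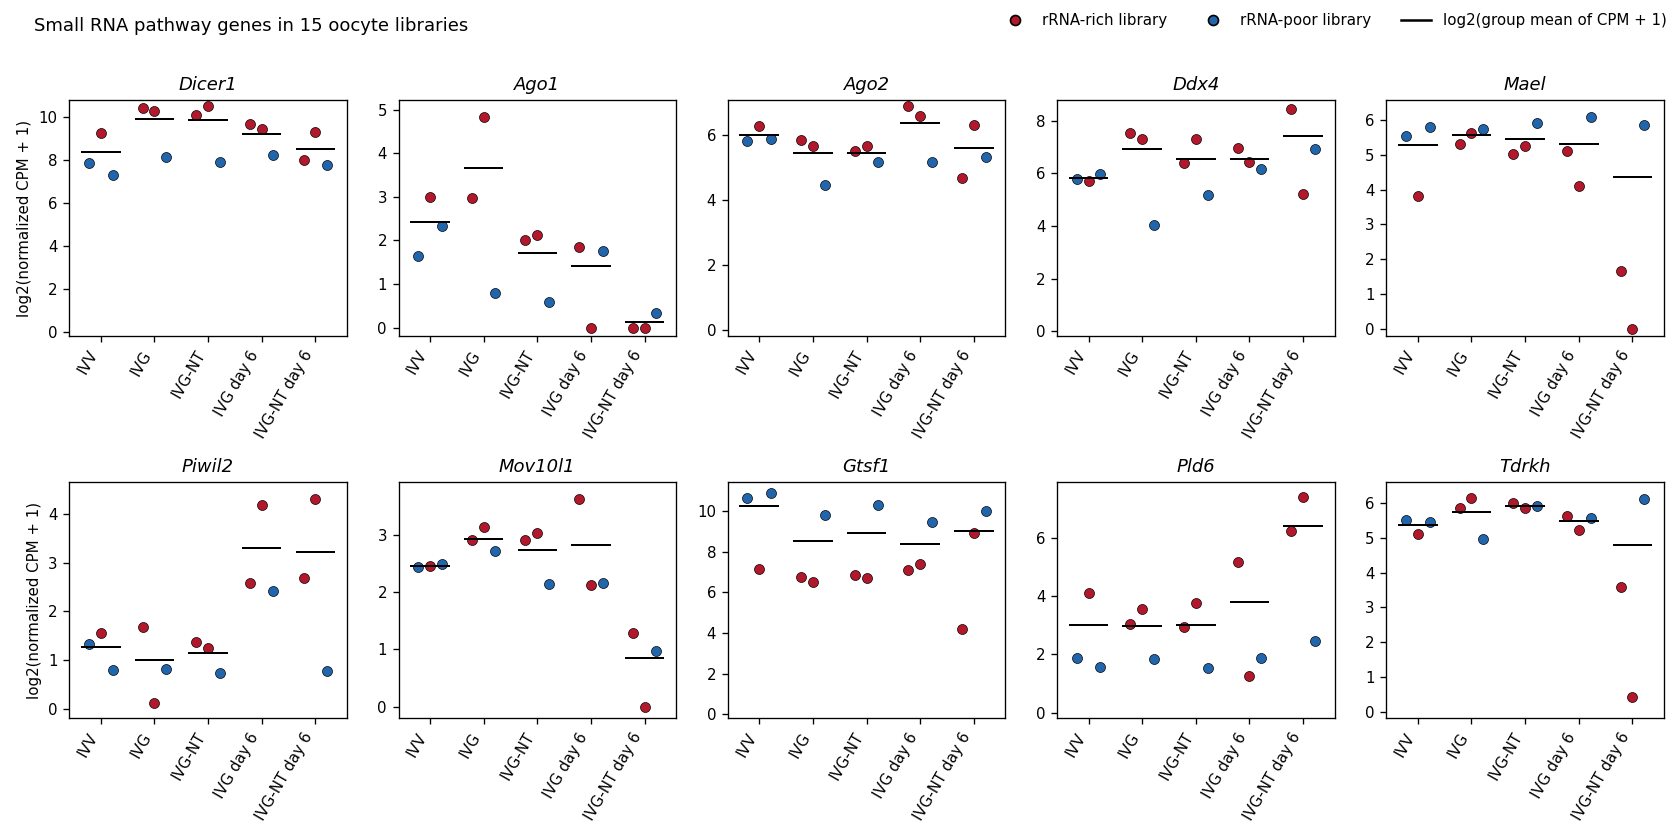
Levels of the 10 genes in each library as log2(normalized CPM + 1), by group; red points are rRNA-rich and blue points rRNA-poor libraries, and bars mark the group mean (n = 3). Dicer1 has its red points above blue in every group, Gtsf1 and Mael the reverse, and Mov10l1 is low in all 3 IVG-NT day 6 libraries (0 to 1.45 CPM).

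Ago2 and Ago1 encode Argonautes, and Ago2 is the one that cleaves its targets. Ago2 (ENSMUSG00000036698, chromosome 15, 73095844 to 73184935, minus strand) was measured at 55.2, 76.8 and 57.6 CPM in IVV, 56.2, 49.1 and 21.1 in IVG, and 43.9, 48.9 and 34.7 in IVG-NT. At day 6 it was at 116, 94.99 and 34.5 CPM without and 24.6, 78.1 and 39.1 with NT-4. The 3 IVG-NT libraries all lay below those of IVV. Ago1 (ENSMUSG00000041530, chromosome 4, 126435012 to 126468583, minus strand) was scarce, at 2.14, 6.91 and 4.04 CPM in IVV, 6.88, 27.5 and 0.739 in IVG, and 3.003, 3.38 and 0.491 in IVG-NT. At day 6 it was at 2.59, 0 and 2.35 CPM without NT-4, where 0 counts allow up to 0.154 CPM, and at 0, 0 and 0.261 with it, where 0 counts allow up to 0.520 and 0.499. The IVG mean of Ago1, 11.7 ± 14.0 CPM (SD, n = 3), rested on replicate 2.

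Ddx4 (ENSMUSG00000021758, chromosome 13, 112598333 to 112652475, minus strand), the germ cell RNA helicase VASA, had 54.6, 51.6 and 62.0 CPM in IVV, a narrow range. It had 185, 159.9 and 15.4 CPM in IVG, and 82.7, 159 and 35.05 in IVG-NT. IVG day 6 oocytes had 124, 84.9 and 71.7 CPM and IVG-NT day 6 oocytes 348, 36.7 and 123. Thus the cultured groups spread to both sides of IVV, except IVG day 6, whose 3 libraries were all above it. Tdrkh (ENSMUSG00000041912, chromosome 3, 94413273 to 94434668, plus strand), a mitochondrial Tudor protein that holds PIWI proteins for trimming of piRNA ends, had 45.0, 33.5 and 43.3 CPM in IVV, 57.5, 69.9 and 30.6 in IVG, and 63.4, 57.3 and 59.1 in IVG-NT. Its levels were 48.5, 36.8 and 46.9 CPM in IVG day 6 and 11.02, 0.348 and 68.2 in IVG-NT day 6. The 3 IVG-NT libraries were above all IVV libraries, and the 2 shallow libraries of IVG-NT day 6 were the lowest of the 15. The exons of Oaz3 on the opposite strand cover 36.7% of the exon bases of Tdrkh and those of Chrac1 cover 1.56% of Ago2, and without strand the reads there cannot be told apart, so Tdrkh is uncertain in part. Oaz3 itself was given 0 to 286 counts per library against 2 to 4185 for Tdrkh. None of the other 8 genes shared exon bases with another annotated gene, and beyond these overlaps no near-identical copy of any of the 10 was found among the transcripts.

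Mov10l1 (ENSMUSG00000015365, chromosome 15, 88982909 to 89055152, plus strand) encodes the helicase that binds piRNA precursors. It was steady at 4.38, 4.49 and 4.59 CPM in IVV and slightly above at 6.49, 7.76 and 5.55 in IVG. It had 6.48, 7.11 and 3.39 CPM in IVG-NT, 11.3, 3.35 and 3.47 in IVG day 6, and 1.45, 0 and 0.962 in IVG-NT day 6, where 0 counts allow up to 0.499. All 3 IVG-NT day 6 libraries, the deeply sequenced replicate 3 included, were thus below each of the other 12. Pld6 (ENSMUSG00000043648, chromosome 11, 59783897 to 59787645, minus strand), the nuclease on the mitochondrial surface that cuts piRNA precursors, had 2.70, 16.4 and 1.95 CPM in IVV, 7.24, 10.8 and 2.55 in IVG and 6.74, 12.5 and 1.87 in IVG-NT. It had 35.1, 1.39 and 2.68 CPM in IVG day 6 and 74.4, 170.0 and 4.55 in IVG-NT day 6. The highest 2 values belonged to the 2 shallow libraries, while the deep library of that group was within the range of the others. Piwil2 (ENSMUSG00000033644, chromosome 14, 70372477 to 70429383, minus strand) encodes the PIWI protein MILI. It had 1.51, 1.94 and 0.732 CPM in IVV, 2.19, 0.0907 and 0.757 in IVG, 1.59, 1.39 and 0.655 in IVG-NT, 5.004, 17.1 and 4.37 in IVG day 6 and 5.42, 19.0 and 0.701 in IVG-NT day 6. Each IVG day 6 library was above all 9 libraries of IVV and day 10.

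When the 5 groups were put in order by their mean CPM, IVG led for Dicer1, Ago1, Mael and Mov10l1, IVG day 6 for Ago2 and Piwil2, IVG-NT day 6 for Ddx4 and Pld6, IVV for Gtsf1 and IVG-NT for Tdrkh. IVG-NT day 6 came last for Ago1, Mael, Mov10l1 and Tdrkh, IVG for Ago2, Piwil2 and Pld6, IVV for Dicer1 and Ddx4, and IVG day 6 for Gtsf1. Neighbours in these orders overlapped in 39 of 40 cases, and the exception was Mov10l1 in IVV over IVG-NT day 6 (4.49 ± 0.108 against 0.802 ± 0.736 CPM, SD, n = 3; two-sided exact permutation test, p = 0.1, the smallest that 3 libraries against 3 allow). The order of the other groups was therefore not resolved by the spread between libraries.

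Growth in vitro was compared with growth in vivo at the end of culture. A gene was called at a log2 fold change beyond 1 with an unadjusted P under 0.05 from edgeR's quasi-likelihood test in 1 fit over all 15 libraries and 21009 genes. None of the 10 genes was called between IVG and IVV, where 2.76% of all genes were, and none between IVG-NT and IVV, where 3.29% were. No gene of the 10 had an unadjusted P under 0.05 in either comparison, and DESeq2's Wald test likewise called 0 of 10. Adjusted p was 1 for each of them (edgeR). Over all genes, edgeR gave 0 with an adjusted p under 0.05 in any of the 6 comparisons, and DESeq2 gave 42 to 704. Fitted log2 fold changes ran from -1.71 to 1.51 for IVG, with a median of 0.34 against -0.20 over all genes, and from -1.30 to 1.48 for IVG-NT, with a median of 0.09 against -0.19.

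Dicer1 had the highest of these, at 332 ± 245 CPM for IVV oocytes, 947 ± 583 for IVG and 927 ± 628 for IVG-NT (SD, n = 3). The fitted change was 1.51 (standard error 0.80) for IVG and 1.48 (0.80) for IVG-NT, neither larger than the spread between libraries by the test. IVV is the group with 1 rRNA-rich library of 3, and each culture group has 2. Within kinds the log2 difference of IVG from IVV was 1.07 among rRNA-rich and 0.56 among rRNA-poor libraries, and that of IVG-NT was 1.04 and 0.32. Dicer1 was called without IVV replicate 3 (2.30 for IVG, 2.27 for IVG-NT), without IVG replicate 3 (1.95) and without IVG-NT replicate 3 (1.94). Each of these is the only library of its kind in its group. With kind as a covariate Dicer1 was at 0.90 for IVG and 0.83 for IVG-NT, and with the replicate block at 0.34 and 0.28, not called. Its sign was kept in all 14 other settings of each comparison.

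Gtsf1 was at 1207 ± 938 CPM for IVV oocytes, 369 ± 467 for IVG and 492 ± 662 for IVG-NT. The log2 fold change was -1.71 (1.32) for IVG and -1.30 (1.31) for IVG-NT. Within kinds it was -0.50 and -0.93 (rRNA-rich and rRNA-poor) for IVG and -0.35 and -0.46 for IVG-NT, and of the single libraries left out in turn, Gtsf1 was called only when the rRNA-poor library of the culture group, IVG replicate 3 (-3.60) or IVG-NT replicate 3 (-3.46), was left out. Ddx4, at 56.1 ± 5.35 CPM in IVV and 120.2 ± 91.6 in IVG, gave 1.10 (0.90), with 1.74 among rRNA-rich and -1.92 among rRNA-poor libraries.

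Libraries did not overlap for Mov10l1 between IVG and IVV (log2 fold change 0.56, standard error 1.25; 6.60 ± 1.11 against 4.49 ± 0.108 CPM), 1 of 10 genes against 11.9% of all genes. Between IVG-NT and IVV they did not overlap for Ago2 (-0.57, standard error 0.72) and Tdrkh (0.56, standard error 1.04), 2 of 10 against 11.6%. Both shares are near those of all genes. The remaining log2 fold changes were 1.42 (Ago1), -0.59 (Ago2), 0.30 (Mael), -0.46 (Piwil2), -0.03 (Pld6) and 0.38 (Tdrkh) for IVG against IVV. For IVG-NT against IVV they were -0.93 (Ago1), 0.72 (Ddx4), 0.17 (Mael), -0.20 (Piwil2), 0.33 (Mov10l1) and 0.01 (Pld6).

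**Figure D3:**
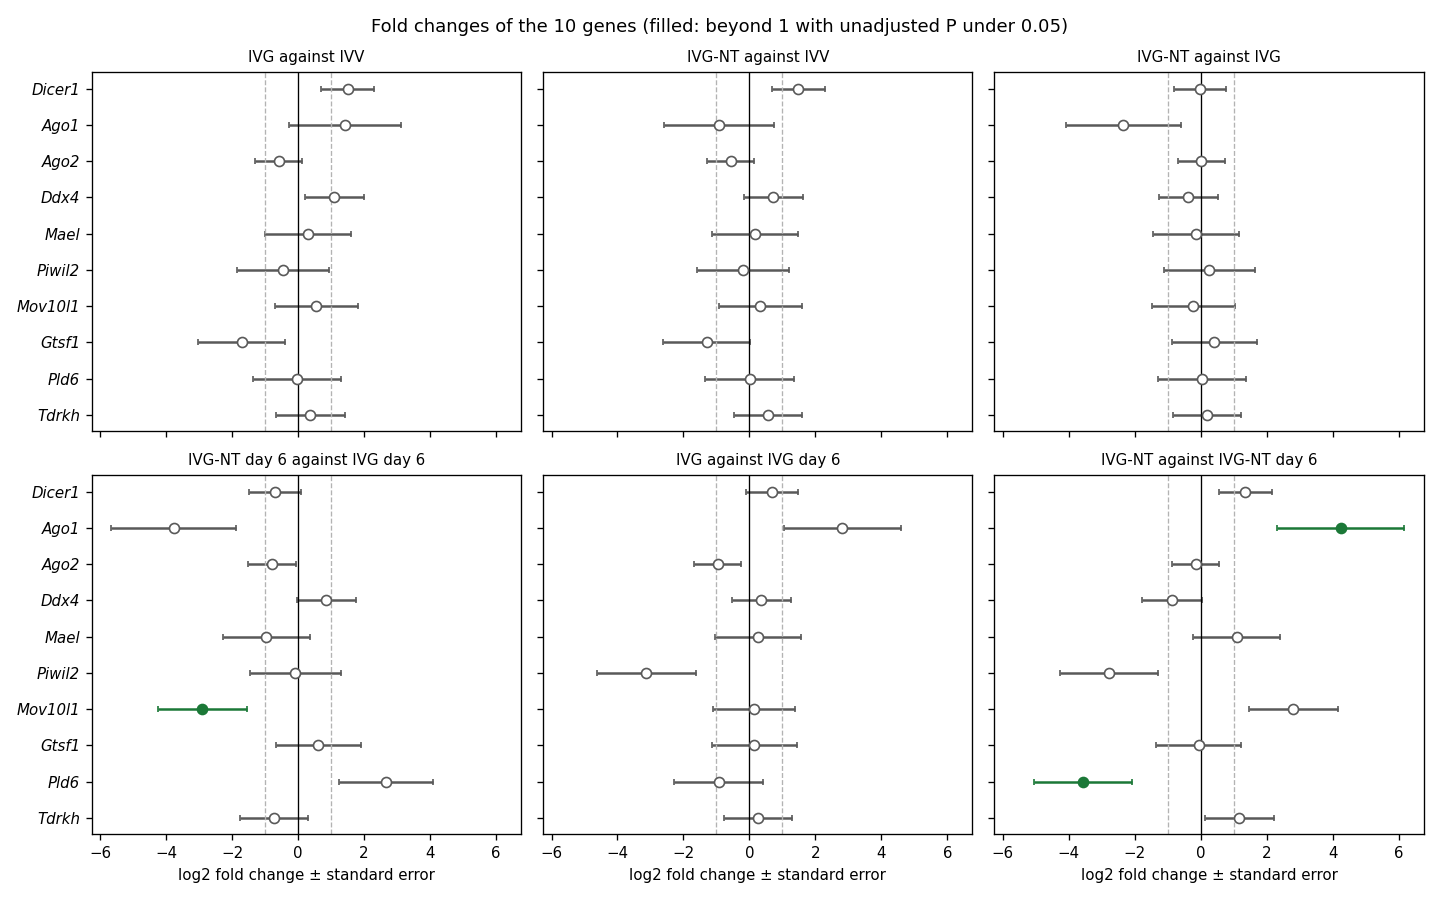
Log2 fold change (edgeR, point) with its standard error (bar) of the 10 genes in 6 comparisons; filled green points are beyond 1 with an unadjusted P under 0.05, and dashed lines mark 1 and -1. Filled points appear only in the 2 comparisons with IVG-NT day 6: Mov10l1 in one, Ago1 and Pld6 in the other.

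The effect of NT-4 was compared at day 10 and at day 6. At day 10, 0 of the 10 genes were called between IVG-NT and IVG, against 1.24% of all genes, and 0 had an unadjusted P under 0.05 (edgeR; DESeq2 also 0). The same-numbered libraries deviate together in this comparison. Replicate 3 is the rRNA-poor library in both groups, so pairing and library kind cannot be told apart. With replicate number as a block, in a fit without the IVV libraries, 0 of the 10 were called and 134 of all genes. The fit of all 15 libraries called 261, and a fit of only the 2 groups, without a block, called 144. For none of the 10 did the 2 groups separate (3.59% of all genes did). The largest difference was that of Ago1, -2.35 (1.74), at 2.29 ± 1.57 against 11.7 ± 14.0 CPM. The others were -0.03 (Dicer1), 0.01 (Ago2), -0.38 (Ddx4), -0.14 (Mael), 0.26 (Piwil2), -0.22 (Mov10l1), 0.42 (Gtsf1), 0.04 (Pld6) and 0.19 (Tdrkh), and the median of the 10 was -0.01 against 0.01 over all genes.

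At day 6 Mov10l1 was called lower with NT-4 (log2 fold change -2.90, standard error 1.35, unadjusted P = 0.0469, adjusted p = 0.426 in edgeR), at 0.802 ± 0.736 against 6.04 ± 4.56 CPM. It was 1 of 10 genes called, against 11.6% of all genes, and 1 of 10 whose libraries did not overlap, against 8.45%. Its difference was -4.43 among rRNA-rich and -1.79 among rRNA-poor libraries, and -2.07 without IVG day 6 replicate 1, which ended the call. Mov10l1 was called in 8 of 15 other settings. Beside the fit without IVG day 6 replicate 1, the call was lost with DESeq2's size factors (-2.44), totals without the rRNA gene (-2.81), no filter (-2.88) and only the 2 groups (-2.76). It was also lost with rRNA-rich libraries alone (-3.18) and the replicate block (-2.86), in a comparison not taken as pairs. Ago1 (-3.77, standard error 1.90) and Pld6 (2.67, standard error 1.43) were not called with all libraries, but Pld6 was without IVG day 6 replicate 1 (5.34) and Ago1 without IVG day 6 replicate 2 (-4.33). The median of the 10 was -0.71, with 3 above and 7 below 0, against -0.27 over all genes. Dicer1 was at -0.69, Ago2 at -0.79, Ddx4 at 0.86, Piwil2 at -0.08 and Gtsf1 at 0.61. DESeq2 called Ago1, Mov10l1 and Pld6 (3 of 10), none with an adjusted p under 0.05, while it called 2633 of 21009 genes in all, 649 with an adjusted p under 0.05.

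The 2 shallow IVG-NT day 6 libraries and the deep one disagreed for several genes. Without the deep library, replicate 3, 5 of the 10 genes were called (Ago1, Mael, Mov10l1, Pld6 and Tdrkh), among 6312 of all genes, and Mael was at -5.15 (adjusted p = 0.0263, edgeR). Without the 2 shallow libraries, a setting added after the data were seen, IVG-NT day 6 was 1 rRNA-poor library assumed to vary like the other groups. Mov10l1 was then at -2.56, while Pld6 (-1.43), Mael (0.61) and Tdrkh (0.70) changed sign. With all 15 libraries Mael was at -0.97 (1.32) and Tdrkh at -0.73 (1.04).

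The difference of the NT-4 effect between day 10 and day 6 was tested as an interaction in the same edgeR fit. For none of the 10 genes was its unadjusted P under 0.05, against 6.37% of all genes. The nearest was Mov10l1, with a log2 difference of 2.68 between the effects (adjusted p = 0.912).

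The course of culture was followed from day 6 to day 10. Without NT-4, 0 of the 10 genes were called between IVG and IVG day 6, against 2.90% of all genes, with 0 under an unadjusted P of 0.05 in edgeR and 1 called by DESeq2. That gene, Piwil2, was lower at day 10 (1.01 ± 1.07 against 8.84 ± 7.20 CPM), by a log2 fold change of -3.12 (1.499), and was the 1 gene of 10 whose libraries did not overlap, against 7.42% of all genes. Within kinds it was at -4.03 (rRNA-rich) and -2.45 (rRNA-poor), and it was called without IVG replicate 1 (-4.34). Ago1 had a log2 fold change of 2.82 (1.77), with 5.18 among rRNA-rich and -1.60 among rRNA-poor libraries. The others were 0.68 (Dicer1), -0.96 (Ago2), 0.36 (Ddx4), 0.27 (Mael), 0.13 (Mov10l1), 0.14 (Gtsf1), -0.93 (Pld6) and 0.26 (Tdrkh), with a median of the 10 of 0.20 against 0.05 over all genes. Same-numbered libraries deviate together here too, again with replicate 3 the rRNA-poor library in both groups. With the block, again fitted without IVV, 0 of 10 were called and Piwil2 was at -2.76.

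With NT-4, Ago1 was higher (4.24, standard error 1.93) and Pld6 lower (-3.56, standard error 1.48) in IVG-NT than in IVG-NT day 6, 2 of 10 genes called against 12.7% of all genes. Adjusted p in edgeR was 0.386 for Ago1 and 0.358 for Pld6. The median of the 10 was 0.52 against 0.40 over all genes, with Dicer1 at 1.35, Ago2 at -0.15, Ddx4 at -0.87 and Gtsf1 at -0.06. Libraries did not overlap for Ago1 (2.29 ± 1.57 against 0.0869 ± 0.151 CPM) and Mov10l1 (5.66 ± 1.99 against 0.802 ± 0.736), 2 of 10 against 11.0%, while Pld6 overlapped (7.03 ± 5.31 against 83.0 ± 83.1). For Ago1, 0 counts in IVG-NT day 6 replicates 1 and 2 allow up to 0.520 and 0.499 CPM. These limits lie above the lowest IVG-NT library (0.491 CPM), so the separation of Ago1 was not established. Mov10l1 had a log2 fold change of 2.80 (1.35) and Piwil2 one of -2.78 (1.48), neither called in edgeR, and DESeq2 called these 2 as well as Ago1 and Pld6 (4 of 10, Pld6 with an adjusted p of 0.0331), while it called 2731 genes in all, 704 with an adjusted p under 0.05.

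In 15 other settings Ago1 was called in 4 and Pld6 in 11. Dicer1 was called in 4, namely with library kind as a covariate (1.07), the replicate block (1.09), rRNA-rich libraries alone (1.36) and without IVG-NT replicate 3 (1.80). Ago1 was not called with DESeq2's size factors (3.81), kind as a covariate (3.77), the block (4.002), no filter (4.18), only the 2 groups (4.28) or rRNA-rich libraries alone (9.25). In the last of these settings Ago1 had 0 counts in both IVG-NT day 6 libraries, so the 9.25 depends on the prior count. With single libraries left out, Ago1 lost its call when IVG-NT replicate 1 (4.01) or 2 (3.86) or IVG-NT day 6 replicate 1 (3.79) or 2 (3.68) was left out, and Pld6 without IVG-NT replicate 1 (-3.53) or 3 (-3.11) or IVG-NT day 6 replicate 2 (-2.55). Without both shallow libraries, again with 1 library standing for IVG-NT day 6, Ago1 was at 3.01 and Mov10l1 at 2.45. Pld6 was then at 0.52, Piwil2 at 0.68, Mael at -0.50 and Tdrkh at -0.28, all 4 of the opposite sign to the fit with all libraries. Without the deep IVG-NT day 6 library instead, 5 of 10 genes were called (Ago1, Mael, Piwil2, Pld6 and Tdrkh), among 6622 of all genes, and Mael (5.28, adjusted p = 0.0239) and Tdrkh (3.40, adjusted p = 0.0494) had an adjusted p under 0.05 in edgeR. With all libraries Mael was at 1.10 (1.32) and Tdrkh at 1.17 (1.05). This comparison shares its IVG-NT day 6 libraries with that at day 6, so the 2 are not independent.

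Among the 33 other small RNA genes, none was called in IVG against IVV or against IVG day 6. Ago4, an Argonaute gene, was the 1 called in IVG-NT, both against IVV and against IVG. It had 75, 72 and 35 counts in the IVV libraries, 42, 12 and 14 in IVG and 0 in all 3 IVG-NT libraries. With 3 counts in place of 0 over the pooled group, this was 56.8-fold lower than IVV and 17.6-fold lower than IVG. These figures allow for counting error only, not for the spread between libraries. Adjusted p was 1 in both (edgeR), though DESeq2 gave Ago4 an adjusted p under 0.05 against IVV. At day 6, 4 of 33 were called between IVG-NT and IVG, a share near the 11.6% of all genes. Xpo5, which exports miRNA precursors (-1.86), Tnrc6c, a partner of Argonautes (-2.11), and Tex15, a factor of piRNA-guided silencing (-5.94), were lower, and Tdrd6, a Tudor gene (4.78), was higher. Tdrd6 had 66.7, 0 and 0.375 CPM with NT-4, so its value rested on 1 library. From day 6 to day 10 with NT-4, 5 of 33 were called, against 12.7% of all genes. Xpo5 (2.41), Tnrc6c (2.42) and Tex15 (6.29) were higher, and Ago4 and Piwil4, a PIWI gene (-6.63), were lower. Piwil4 rested on the 2 shallow IVG-NT day 6 libraries (7.23 and 22.8 CPM). The deep one, at 0.147 CPM, was within the range of IVG-NT (0 to 0.294). Tex15 had 10.5, 7.07 and 27.8 CPM in IVG-NT and 0, 0 and 0.424 in IVG-NT day 6, without overlap. Ago4 had 109, 0 and 56 counts in IVG-NT day 6 (19.7, 0 and 0.913 CPM), so 1 library was at 0 like those of IVG-NT. With 3 counts in place of 0 over the pooled IVG-NT group, the pooled level was 80.5-fold higher, a figure that allows for counting error only. Without the shallow replicate 1, which holds the high value, this figure was 29.6-fold. The lowest adjusted p of any of the 33 genes was 0.357 (edgeR), while DESeq2 gave 1 of them an adjusted p under 0.05 in IVG-NT against IVV, 1 at day 6 and 2 from day 6 to day 10 with NT-4. At day 6 DESeq2 also called 4 of 33, Tex15 as edgeR did and Piwil1, Piwil4 and Tdrd9 in place of the others. In the order of the comparisons above, 4, 4, 5, 5, 3 and 5 of the 33 genes had groups that did not overlap, against 11.9%, 11.6%, 3.59%, 8.45%, 7.42% and 11.0% of all genes.

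The 10 genes were also compared with each other over the 15 libraries. Mael and Tdrkh were the most alike pair (r = 0.96 of log2 CPM), followed by Mov10l1 with Tdrkh (0.88) and with Mael (0.85), and all 3 had their lowest value in IVG-NT day 6 replicate 2. Gtsf1 and Ddx4 (-0.71), Mael and Pld6 (-0.77) and Gtsf1 and Dicer1 (-0.63) ran opposite. Among 5128 protein-coding genes with at least 10 counts in every library, the most like Dicer1 were Marf1 (0.97) and Setdb1 (0.97), and the most like Gtsf1 were Ndufab1 (0.99) and Gm10131 (0.99). Mael was most like Nrg4 (0.99) and Oog1 (0.98), Tdrkh most like Rnf114 (0.99) and Nrg4 (0.98), and Mov10l1 most like Slc22a23 (0.97) and Stim2 (0.97). The values for Pld6 (Atm 0.95, Gpr158 0.94), Ago1 (Npat 0.87, Hmgcs1 0.85), Piwil2 (Appbp2 0.86, D330045A20Rik 0.84), Ago2 (Abcc4 0.85, Senp2 0.81) and Ddx4 (Nbea 0.83, Atp6v1h 0.83) were lower. All points share the depth and the kind of their library, so these are descriptions without a test.

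**Figure D4:**
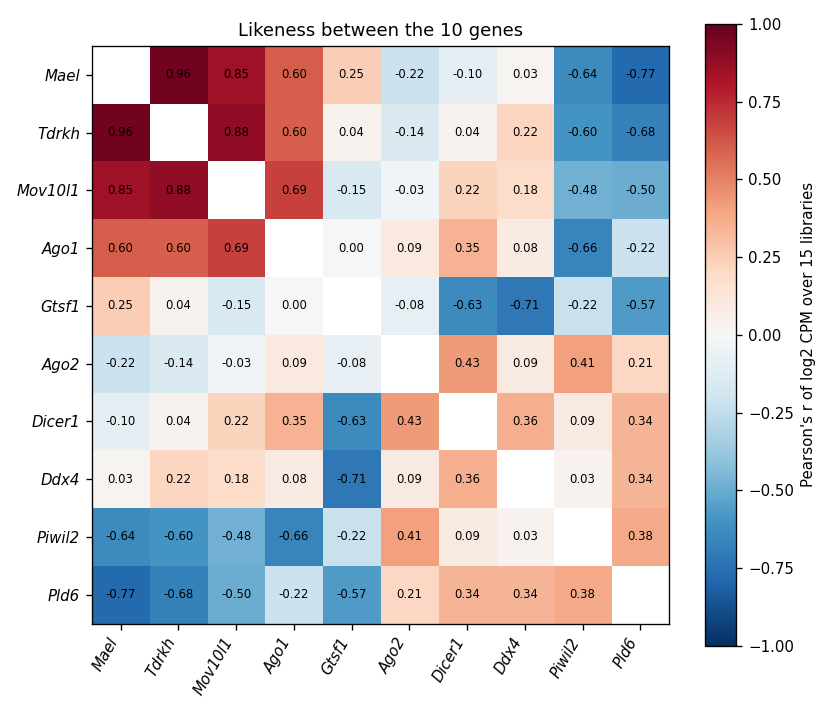
Pearson's r of log2 CPM (prior count 2) between the 10 genes over 15 libraries; red is positive and blue negative. Mael, Tdrkh and Mov10l1 form a block with r from 0.85 to 0.96, and Pld6 and Piwil2 run opposite to it.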

How the data were processed

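Reads with adaptors or bases of low quality were discarded by the authors, who aligned the rest to mm10 with HISAT2 (FastQC and edgeR are also named in the submitters' notes, without versions) and deposited raw counts per Ensembl gene for each library. The paper names StringTie for assembly and FPKM. How counts per gene were taken and the annotation release are not given in the sources used here. Symbols, exons and coordinates are those of GENCODE vM21.

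Counts of 15 libraries were filtered with filterByExpr (minimum count 10; 21009 genes), scaled by TMM and fitted with edgeR 4.0.16 (limma 3.58.1) in R 4.3.3 as group means; the Benjamini-Hochberg adjustment ran over all genes of a comparison. Single genes were compared with exact permutation tests. DESeq2 1.42.0 and the other settings are given at the end. The fit was also run on simulated counts with a spread set below the estimated one and without rRNA-rich and rRNA-poor kinds. That run checks the code only. FPKM used normalized totals. The rRNA limit was 5%.

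The members and gene lists were chosen with earlier results of these data known. Named were the 10 genes in every comparison; of the 33 others, those called and the 3 highest and lowest in FPKM; and the 2 genes most like each. Genes named for the kind of library or from DESeq2 were added after their values were seen. Groups and replicate numbers follow the titles. The same-numbered libraries were taken as pairs where each pair's deviations correlated above 0.1, in IVG-NT against IVG (0.37 to 0.73) and IVG against IVG day 6 (0.15 to 0.54). There 5 and 3 of 6 libraries correlated best with the library of their own number. This measure did not set them apart from the comparisons not taken as pairs. Replicate 3 was the rRNA-poor library of every culture group, so shared experiment and shared library kind cannot be told apart.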

Additional observations from a re-analysis of the deposited data

Results flagged for a closer look

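For 2 of the other small RNA genes the difference made by NT-4 was unlike at day 10 and day 6 at an unadjusted P under 0.05 (interaction term in edgeR's fit), and for neither did it pass the adjustment. Tex15 had a log2 difference of 5.03 between the effects at day 10 and day 6 (adjusted p = 0.685 in edgeR): -0.92 at day 10 and -5.94 at day 6, where 2 of the 3 libraries with NT-4 were at 0 and are the shallow ones. For Ago4 the fitted difference was -10.38 (adjusted p = 0.664 in edgeR), a value that depends on the prior count because all 3 IVG-NT libraries had 0 counts. Of all genes, 6.37% had a P under 0.05 for this term.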

How the results depend on the processing

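Of the 10 genes, the number called between IVG and IVV was 0 and rose to 1 without the filter on low counts (Dicer1, among 1637 of all genes). With single libraries left out it was 0 to 2, the 2 being without IVG replicate 3 (1164 of all genes). For IVG-NT against IVV the latter range was also 0 to 2, the 2 being without IVG-NT replicate 3 (1237 of all genes). For IVG-NT against IVG it was 0 to 0. At day 6 (IVG-NT against IVG, 1 called) it was 0 with the totals without the rRNA gene (2359 of all genes called), with no filter (4022), with only the 2 groups in the fit (1328) and with the replicate block (1476). It was 2 with library kind as a covariate (3312 of all genes) and 3 by DESeq2's Wald test (2633). With single libraries left out it was 1 to 5, the 5 being without IVG-NT day 6 replicate 3 (6312 of all genes). It was 1 with DESeq2's size factors (Pld6, among 2546 of all genes) and among rRNA-rich libraries (Mael, among 4597), each without Mov10l1. IVG against IVG day 6 gave 1 (Piwil2) with DESeq2's size factors, totals without the rRNA gene, the Wald test, only the 2 groups or the kind as a covariate. These settings called 578 to 1022 of all genes. With single libraries left out it gave 0 to 1. IVG-NT against IVG-NT day 6 gave 1 with no filter (4250 of all genes called) and 1 with only the 2 groups (1523). It gave 4 by the Wald test (2731 of all genes) and 4 among rRNA-rich libraries (4918). With single libraries left out it gave 0 to 5, the 5 being without IVG-NT day 6 replicate 3 (6622 of all genes).

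Without the 2 shallow libraries, fold changes of opposite sign included Pld6 -1.43, Mael 0.61 and Tdrkh 0.70 at day 6. From day 6 to day 10 with NT-4 they included Pld6 0.52, Piwil2 0.68, Mael -0.50 and Tdrkh -0.28. Signs also changed in other comparisons and settings. For IVG-NT against IVV, Pld6 changed sign in 10 of 14 settings (-2.01 to 1.59). Further cases were Ago2 and Pld6 for IVG-NT against IVG (7 of 14 each), Gtsf1 for IVG against IVG day 6 (6 of 14) and Piwil2 at day 6 (7 of 15). The cause was not tested. DESeq2's size factors moved the median of all genes from -0.20 to -0.39 (IVG) and -0.19 to -0.36 (IVG-NT) against IVV, from -0.27 to 0.003 at day 6 and from 0.40 to 0.04 for IVG-NT against IVG-NT day 6. In the 2 comparisons not taken as pairs by the limit of 0.1, same-numbered correlations were 0.083 to 0.33 and 0.066 to 0.26. There 5 and 4 of 6 libraries were best with their own number. The replicate block in these, fitted without IVV, gave 0 and 2 (Dicer1 and Pld6, not Ago1) of 10 called, 1476 and 1696 of all genes. IVV shares 2 numbers with each culture group (correlations -0.52 to -0.28) and the block left 0 called against it. Titles and files number the in vivo libraries differently, so that pairing is uncertain. In the 2 shallow libraries 0 counts allow up to 0.520 and 0.499 CPM, which limits what can be read for Ago1 and Mov10l1.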
